A study of Rattus norvegicus with 12 samples.

Results

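Circular RNAs (circRNAs) from the genes of RNA-binding proteins and splicing factors were described in the livers of diabetic Wistar rats. The set was chosen by gene name, not by any measured value. It took every host gene whose symbol begins with Hnrnp, or with Srsf, Rbm, Rbfox, Mbnl, Celf, Pum, Dhx or Ddx and a number, or with Sf3a, Sf3b, Prpf and a number, Snrnp or Adar. Entries listed under an Ensembl identifier were added where they shared a transcript with such an entry. This gave 91 host genes of 6501 in the whole table, with 281 back-splice junctions of 21068. The 91 hosts gave 2421 of the 284534 back-splice reads, or 0.851%, and made up 1.40% of all hosts.

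A circRNA forms when the splicing machinery joins the end of an exon back to the start of the same or an earlier exon, and the read across that joint (the back-splice) is what is counted. Many proteins encoded by these hosts act in that process: heterogeneous nuclear ribonucleoproteins (hnRNPs), Mbnl and Rbfox proteins bind introns and steer splice-site choice, while the RNA helicase Dhx9 and the adenosine deaminase Adar act on paired intronic repeats that bring splice sites together. The counts below are of circles made from the genes of these factors. They do not measure the messenger RNA or the protein of any factor.

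Wild-type rats had received a high-fat diet (60% of energy as fat) for 4 weeks and 1 dose of streptozotocin, a toxin of insulin-producing cells, at 35 mg/kg after a 16 h fast. Animals with fasting glucose above 16.7 mmol/L 3 days later were used, so every group had diet-induced and chemically induced diabetes. The groups were sham operation (5 libraries), sleeve gastrectomy, a surgical narrowing of the stomach, sampled at 3 months (5 libraries), and return of diabetes after sleeve gastrectomy, called relapse here (2 libraries). The time of sampling of the sham and relapse groups is not stated in the labels. The labels also do not say that each library is a separate animal. Each p-value therefore sets a difference against the spread among these libraries, which may be technical. That spread was estimated over all 3 groups together, so relapse values lean on the spread of the other 2. Each library held 18176 to 37229 back-splice reads. Levels are given as RPM, the reads of a gene or circle scaled to 1000000 back-splice reads of its library. This is a share of circular reads, not an amount per cell, and fewer cells of a type cannot be told apart from fewer circles per cell. Of 20 hepatocyte marker genes 18 had circles, with 9982 reads, and 10 pancreas and gut markers had none. The summed hepatocyte marker level was 30970 to 45555 RPM in sham, 27909 to 43287 RPM in sleeve gastrectomy and 25064 to 26915 RPM in relapse, so both relapse libraries lay below every other library. The 10 endothelial markers, 6 with reads, summed to 806 to 1029 RPM in relapse, 275 to 903 RPM in sham and 378 to 983 RPM in sleeve gastrectomy. The part of these marker levels in any relapse value below was not tested.

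The 91 hosts gave a small share of circular reads. The share was 0.990%, 0.842%, 0.724%, 0.802% and 0.790% in the sham libraries, 0.931%, 0.742%, 0.787%, 0.731% and 0.880% after sleeve gastrectomy, and 1.06% and 0.886% in relapse. The means of these groups were 0.830% ± 0.0991 (SD, n = 5), 0.814% ± 0.0879 (SD, n = 5) and 0.974% ± 0.123 (SD, n = 2), and the ranges of the 3 groups overlapped. The 95% Wilson interval, which covers counting error only, ran from 0.613% to 0.854% for the lowest library, sham 3. It ran from 0.923% to 1.22% for the highest, relapse 1, and these intervals did not overlap. Within sham, the interval of sham 1, 0.884% to 1.11%, did not overlap that of sham 3 either. Each library had reads from 27 to 44 of the 91 hosts. In all, 70 of the hosts had a read in sham, 66 in sleeve gastrectomy and 53 in relapse. The groups differed in depth, with 109053, 119779 and 55702 reads in turn, so these totals are not like for like. Relapse had the fewest reads and the fewest hosts, but sleeve gastrectomy had more reads than sham and fewer hosts. Per library the mean number of hosts was 31.6 in sham, 34.4 in sleeve gastrectomy and 37.0 in relapse.

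Reads were concentrated in a few hosts. The first 8 hosts, among them Hnrnph1, Hnrnpm, Rbm27, Dhx33, Rbm47, Rbm6 and Hnrnpul2, gave 67.1% of the reads of the set. At the other end, 56 of 91 hosts (61.5%) had fewer than 10 reads over the 12 libraries, against 59.2% of all hosts, and 14 (15.4%) had a single read, against 15.2%. Only 6 members (6.59%) had reads in all 12 libraries, among them Hnrnph1, Rbm27, Dhx33, Rbm47 and Rbm6, and 9.58% of all hosts did. The median was 7 reads against 6. At the abundant end, 6.59% of members and 8.00% of all hosts had 100 reads or more. No test is given for these shares.

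**Figure D1:**
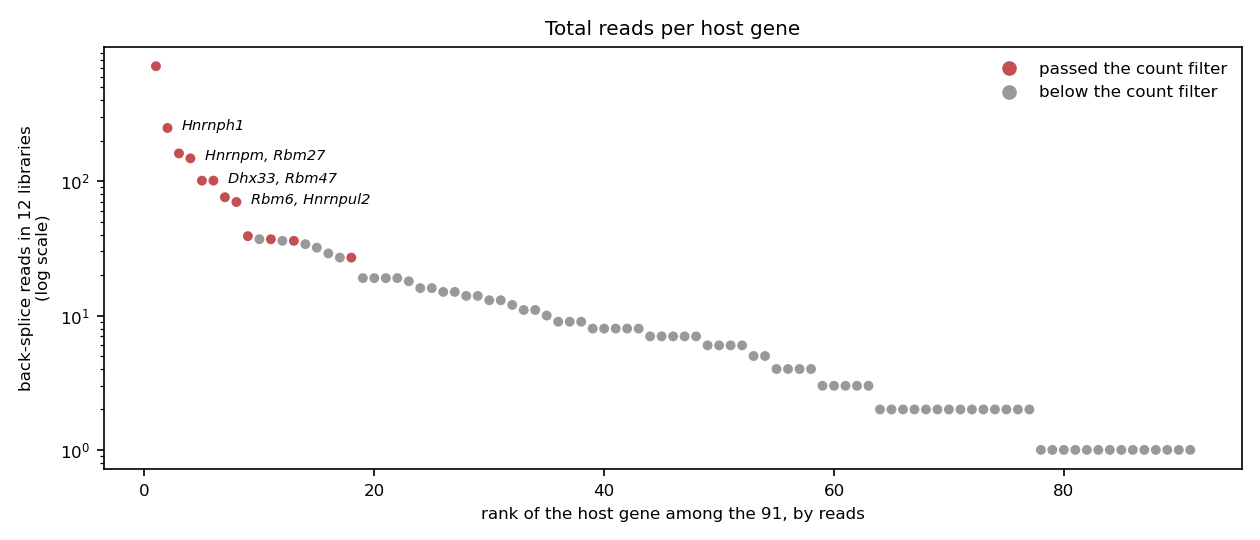
Back-splice reads summed over 12 libraries (vertical axis, log scale) for each of the 91 host genes, ordered by reads (horizontal axis). Red points are the 12 genes that passed the count filter for testing and grey points the 79 that did not; 56 genes lie under 10 reads.

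By family, the Hnrnp genes gave 541 reads from 12 hosts and the Rbm genes 420 from 13. The helicase families held more hosts with fewer reads each: the 23 Ddx hosts gave 235 reads and the 15 Dhx hosts 205. Other families were Snrnp (4 hosts, 62 reads), Sf3 (5 hosts, 57 reads), Prpf (8 hosts, 53 reads), Mbnl (2 hosts, 46 reads), Rbfox (2 hosts, 40 reads), Adar (2 hosts, 17 reads), Srsf (2 hosts, 7 reads) and Celf (1 host, 7 reads). The SR proteins, which promote exon inclusion and are among the best-known splicing factors, were therefore nearly absent as circle hosts at this depth.

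The circles of the 91 hosts were short on the genome. Exonic circles from these genes numbered 245 and spanned a median of 2820 bp from start to end, with quartiles at 1177 and 8340 bp. All 17483 exonic circles with a host spanned a median of 5551 bp. The median number of exons was 3 in both sets. Circles of 2 to 4 exons made up 65.7% of the exonic circles of these genes and held 87.5% of their exonic reads, against 67.6% of circles and 74.1% of reads for all hosts. Among circles read in at least 2 libraries the median span was 2299 bp for the set and 5387 bp for all hosts, so the short span was not limited to circles seen once. No test is given for these differences, because circles of a gene share exons.

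**Figure D2:**
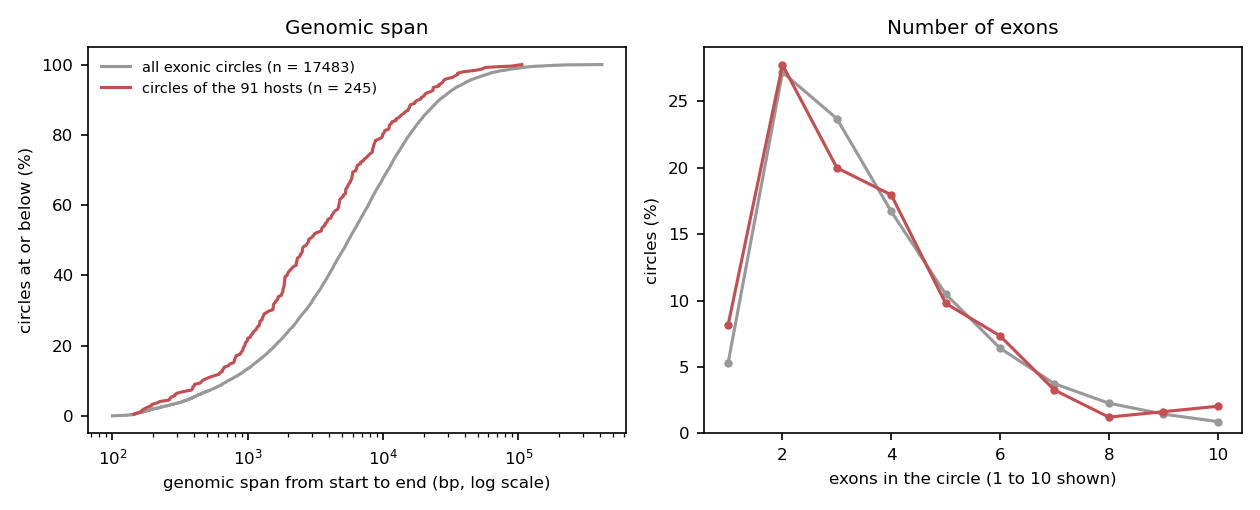
Left, cumulative percentage of exonic circles (vertical axis) by genomic span from start to end in bp (horizontal axis, log scale), for the 245 circles of the 91 hosts in red and all 17483 exonic circles with a host in grey. Right, percentage of circles by number of exons from 1 to 10; the red span curve lies to the left (median 2820 against 5551 bp) while the exon curves nearly coincide.

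The exon at which a circle opens also differed by reads, though not by number of circles. Of the 230 exonic circles of the set with exon numbers in the deposited table, 22.6% opened at exon 2, as did 22.1% of all 16070. Those circles held 8.60% of the reads of the 230 circles and 36.3% of the reads of the 16070. Such read shares follow a few abundant circles: a single Hnrnph1 circle of exons 8 and 9 held 247 of the 2421 reads of the set. The difference in read share was not tested. No circle of the set opened at exon 1, and 74 of all circles (0.460%) did. Intronic circles, which are made from a single intron, numbered 36 from 23 hosts and held 4.71% of the reads of the set, against 6.80% for all hosts. Of the 281 junctions 62.6% were read in 1 library, against 60.7% for all hosts.

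Among the hnRNP genes, whose proteins coat nascent transcripts and influence splice-site choice, Hnrnph1, Hnrnpm and Hnrnpul2 led. Hnrnph1, which binds runs of guanine, gave 1390, 880, 781, 1103 and 604 RPM in sham. It gave 898, 1228, 485, 688 and 1027 RPM after sleeve gastrectomy and 487 and 752 RPM in relapse. The 3 groups overlapped, and relapse 1 was close to the lowest sleeve gastrectomy library. Nearly all its reads, 247 of 249, came from a single circle of exons 8 and 9, circRNA327, on the plus strand at chr10:35876014-35876397 (assembly Rnor_6.0, as all coordinates here). It was found in all 12 libraries.

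A neighbouring circle of the same gene was not counted in the set, because the table lists it under another transcript. It is circRNA2508, which ends at the same base as circRNA327 and, by the start the table lists, begins 21 bases later; starts of such entries are not all counted alike in the table, so the shift may be off by a few bases. It had 178 reads: 37, 14, 11, 21 and 3 in sham, 19, 10, 9, 17 and 19 after sleeve gastrectomy, and 6 and 12 in relapse. Circle circRNA327 had 42, 16, 15, 22 and 13 reads, then 19, 25, 9, 21 and 28, and then 9 and 28 in the same libraries. The shorter circle thus followed at or below the longer in every library. Counted together the Hnrnph1 gene record had 427 reads, with 1704 ± 721 RPM (SD, n = 5) in sham, 1482 ± 357 RPM (SD, n = 5) in sleeve gastrectomy and 943 ± 186 RPM (SD, n = 2) at relapse. With both circles the log2 fold change of relapse against sham was -0.89 (SE 0.41), with an unadjusted p of 0.0329 and an adjusted p of 0.807 (edgeR, an alternative chosen after the data were seen).

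Hnrnpm, a splicing regulator that prefers sequences rich in guanine and uracil, varied widely between libraries of a group. Sham libraries had 265, 550, 0, 501 and 697 RPM. Sleeve gastrectomy libraries had 1134, 246, 863, 524 and 582 RPM, and relapse libraries 433 and 860 RPM. The groups overlapped, and the 0 in sham 3 allows up to 156 RPM at 3 reads. Of its 161 reads 141 were in circRNA1018, made of exons 8 to 10 on the minus strand at chr7:18533479-18535599. Hnrnpul2, linked to the response to DNA breaks, had 530, 605, 0, 351 and 46.5 RPM in sham, 142, 147, 162, 393 and 103 RPM after sleeve gastrectomy, and 271 and 161 RPM in relapse. Its sham libraries ran from none to the highest value of all 12. Its leading circle, circRNA5393 (chr1:225019524-225021984, plus strand, exons 4 to 9), held 42 of 70 reads. The other 9 Hnrnp hosts had 1 to 16 reads each.

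The Rbm genes encode proteins with RNA recognition motifs, and Rbm27, Rbm47 and Rbm6 had reads in every library. Rbm27, a partner of the nuclear RNA exosome, had 430, 330, 312, 552 and 325 RPM in sham. It had 236, 786, 701, 786 and 274 RPM after sleeve gastrectomy and 379 and 860 RPM in relapse. The sleeve gastrectomy libraries fell on both sides of the sham range. Its 2 main circles are neighbours on the plus strand of chromosome 18. Circle circRNA907 (chr18:36637824-36639900, exons 10 and 11) had 83 reads and circRNA908 (chr18:36640590-36645658, exons 12 to 15) had 54.

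The 2 Rbm27 circles are given apart here, and the difference between them was not tested. Circle circRNA908 had 4, 1, 0, 0 and 1 reads in sham, 2, 12, 7, 8 and 5 after sleeve gastrectomy, and 5 and 9 in relapse, or 46.8 ± 54.3 RPM (SD, n = 5), 299 ± 194 RPM (SD, n = 5) and 256 ± 20.4 RPM (SD, n = 2). Both relapse libraries, at 242 and 271 RPM, lay above the 5 sham libraries, while the lowest sleeve gastrectomy library lay inside the sham range. How many of all circles separate relapse from sham in this way is not given. Circle circRNA907 had 6, 4, 3, 11 and 6 reads in sham, 3, 4, 6, 14 and 3 after sleeve gastrectomy, and 2 and 21 in relapse, so its groups overlapped.

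Rbm47 is best known in liver as a cofactor for editing of apolipoprotein B messenger RNA. It had 165, 220, 364, 351 and 325 RPM in sham and 662, 147, 270, 164 and 411 RPM after sleeve gastrectomy. Relapse 1 had 1137 RPM, the highest of the 12, while relapse 2 had 295 RPM, inside the sham range. Nearly all of its 101 reads came from 1 circle, circRNA755, of exons 3 and 4 on the plus strand at chr14:43831571-43834103, with 98 reads. Rbm6, a splicing regulator related to Rbm5, had 530, 385, 260, 201 and 139 RPM in sham, 236, 344, 324, 197 and 103 RPM after sleeve gastrectomy, and 162 and 295 RPM in relapse. Its groups overlapped, and circRNA2435 (chr8:116554094-116555206, minus strand, exons 9 and 10) held 54 of its 76 reads. Among the other Rbm hosts Rbm33 had 34 reads, Rbm4b 29 and Rbm26 11, and the rest had 1 to 8. Rbm4b has a closely similar neighbour, Rbm4, so reads of these copies could be exchanged. The 13 Rbm hosts together had 1309 ± 160 RPM (SD, n = 5) in sham, 1441 ± 201 RPM (SD, n = 5) in sleeve gastrectomy and 1915 ± 125 RPM (SD, n = 2) at relapse. Both relapse libraries, at 1827 and 2003 RPM, lay above the highest of the others, 1618 RPM. Rbm47 was high in relapse 1 and Rbm27 in relapse 2, and no test was made of this sum. With 2 relapse libraries such a placing can arise without a group difference.

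The tissue-dependent splicing regulators had few circles. Rbfox2, which binds a short motif beside alternative exons, had 39 reads: 6, 5, 5, 1 and 0 in sham, 5, 0, 0, 2 and 8 after sleeve gastrectomy, and 1 and 6 in relapse. An entry at the same junction as an Rbfox2 circle, listed under another transcript and so not counted, had 17 further reads: 5 in sham 1, 5 in sleeve gastrectomy 5, and 2 and 5 in relapse. Mbnl1, a muscleblind protein known to bind transcripts of its own gene and promote a circle from them, had 27 reads, in 10 of 12 libraries, of which 9 were in sham, 11 in sleeve gastrectomy and 7 at relapse. Mbnl2 had 19 reads, Celf2 7, and Rbfox1 a single one. Celf2 reads were absent from all 5 sham libraries. With these libraries pooled, 0 of 109053 reads allows up to 27.5 RPM by counting error alone, leaving out the spread between libraries. The Celf2 level after sleeve gastrectomy was 43.2 ± 43.1 RPM (SD, n = 5), so the counts are too few for a comparison.

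Among the helicases, which unwind or remodel RNA, Dhx33 was the most abundant host. Its protein acts in ribosomal RNA synthesis and in sensing of foreign RNA. It had 10, 3, 3, 3 and 7 reads in sham, 6, 11, 7, 4 and 14 after sleeve gastrectomy, and 12 and 21 in relapse. As RPM these were 331, 165, 156, 150 and 325, then 284, 540, 378, 131 and 479, and then 650 and 564. Both relapse libraries were above all 10 others, narrowly so over the highest sleeve gastrectomy library, and sham and sleeve gastrectomy overlapped. The share of all hosts with such a separation is not given, and 2 libraries can lie highest without a group difference. All 101 reads came from 1 circle, circRNA360, of exons 3 and 4 on the minus strand at chr10:57634024-57634588.

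The other DEAH-box genes were lower. Dhx36, which unwinds four-stranded guanine structures, had 36 reads: 0, 0, 2, 1 and 5 in sham, 0, 1, 6, 4 and 6 after sleeve gastrectomy, and 6 and 5 in relapse. The groups overlapped, and 33 of the reads were in circRNA1852 (chr2:152807003-152807924, minus strand, exons 10 to 12). Dhx9, whose protein removes paired repeats that favour circle formation, had 8 reads in 4 libraries. Dhx57 had 11 reads with none in sham. Over all 15 Dhx hosts the level was 499 ± 146 RPM (SD, n = 5) in sham, 738 ± 207 RPM (SD, n = 5) in sleeve gastrectomy and 1187 ± 388 RPM (SD, n = 2) at relapse. Relapse ran from 913 to 1462 RPM and the highest sham library had 652 RPM, while the highest sleeve gastrectomy library had 959 RPM. No test was made of the family sum, of which Dhx33 and Dhx36 made up most. The sum leaves out entries with a Dhx gene record listed under another transcript. For Dhx35 these had 11 reads (5 and 6 in relapse), 4 reads (relapse 2) and 2 reads (sham 3). For Dhx8 there were 3 reads, in sham 5.

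The DEAD-box genes overlapped between groups. Ddx17, a partner of the microRNA processor and a splicing helicase, had 3, 4, 0, 4 and 5 reads in sham, 1, 12, 3, 0 and 3 after sleeve gastrectomy, and 1 and 0 in relapse. Its highest value, 590 RPM, was in 1 sleeve gastrectomy library. An uncounted entry at the junction of its leading circle had 3 further reads, all in relapse 1. The 23 Ddx hosts together had 826 ± 134 RPM (SD, n = 5) in sham, 795 ± 364 RPM (SD, n = 5) in sleeve gastrectomy and 999 ± 349 RPM (SD, n = 2) at relapse, overlapping throughout. After Ddx17 came Ddx46 with 32 reads, and 14 of the 23 had fewer than 10. Ddx3 (14 reads) and Ddx3x (19 reads) are closely similar copies, so their reads could be exchanged. Ddx10 had 16 reads, 14 of them after sleeve gastrectomy and none in relapse. There, 0 of 55702 pooled reads allows up to 53.9 RPM by counting error alone.

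Core spliceosome genes were minor hosts. Snrnp200 encodes the helicase that activates the spliceosome, and it had 37 reads: 4, 0, 0, 0 and 8 in sham, 7, 0, 0, 1 and 4 after sleeve gastrectomy, and 5 and 8 in relapse. It was at 0 in 5 of the 12 libraries, and 34 of its reads were from an intronic circle, ciRNA101, on the plus strand at chr3:119640480-119640893. Prpf6, which bridges the small nuclear ribonucleoproteins of the spliceosome, had 37 reads: 5, 5, 0, 1 and 2 in sham, 4, 4, 3, 3 and 6 after sleeve gastrectomy, and 4 and 0 in relapse. The sleeve gastrectomy libraries were the most even, at 98.3 to 205 RPM, inside the sham range. Sf3b3, a subunit of the complex that recognises the branch point, had 27 reads: 0, 1, 0, 8 and 7 in sham, 2, 0, 0, 2 and 1 after sleeve gastrectomy, and 0 and 6 in relapse. Its sham reads came almost wholly from 2 libraries. Snrnp40 had 15 reads, none in relapse. The SR-protein gene Srsf4 had 6 reads in 2 libraries, 4 in sham and 2 in relapse, and Srsf5 had 1.

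The deaminases that edit double-stranded RNA were barely detected as hosts. Adar had 10 reads in 6 libraries: 4 in sham, 5 in sleeve gastrectomy and 1 at relapse. Adarb1 had 7 reads, of which 6 were in a single sham library. Since 3 reads correspond to 80.6 to 165 RPM in a library, a difference between groups was not detectable at this depth for these genes.

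**Figure D3:**
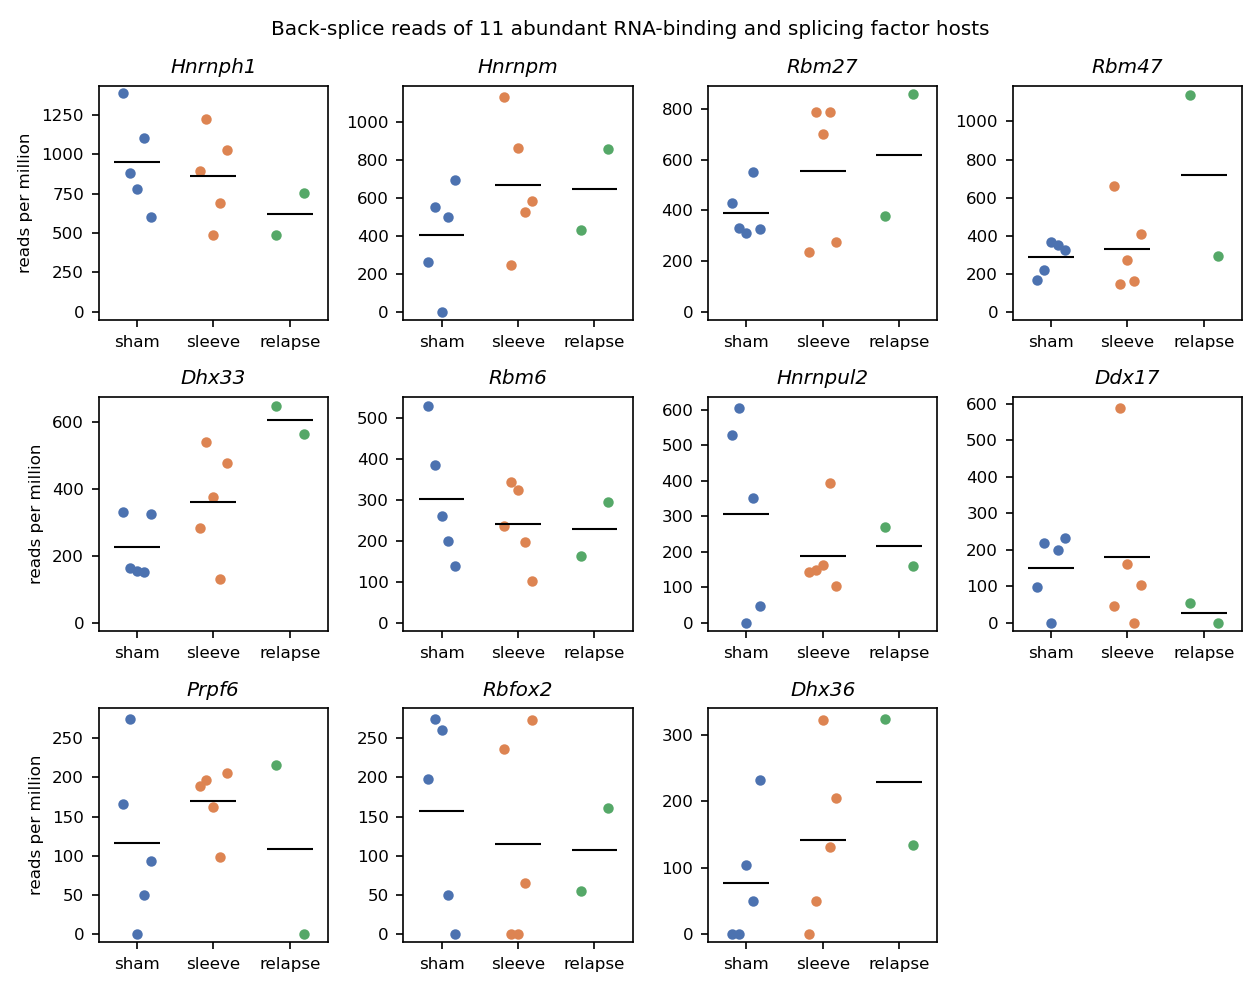
RPM (vertical axis, linear, scaled to each gene) in each of the 12 libraries for 11 of the most abundant host genes of the set. Points are libraries of sham (5), sleeve gastrectomy (5) and relapse (2), and lines are group means. Both relapse points of Dhx33 lie above all others, and the share of all hosts with such a separation is not given.

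The first comparison asked whether circle levels differed between sleeve gastrectomy and sham. Of the 91 hosts 12 (13.2%) passed the count filter, as did 21.0% of all hosts, and none of them passed a false discovery rate of 0.05 in edgeR's quasi-likelihood test. Over all 1368 hosts tested the share called was 0.146%, or 2 hosts. None of the 12 had an unadjusted p under 0.05 either, where 3.29% of all hosts did, and DESeq2 called none of them. Hnrnpm had a log2 fold change of 0.73 (SE 0.51), with an unadjusted p of 0.163 and an adjusted p of 0.994 in edgeR. Others were Sf3b3 at -1.79 (SE 1.43), Dhx33 at 0.62 (SE 0.57), Rbm27 at 0.51 (SE 0.47) and Hnrnpul2 at -0.65 (SE 0.76). The standard errors show what was measurable: that of Hnrnph1 was 0.35, and that of Sf3b3 was nearly as large as its estimate.

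The second comparison set relapse against sleeve gastrectomy, whose libraries it shares with the first. Again none of the 12 tested members was called, where 0.146% of all hosts were. None had an unadjusted p under 0.05, against 4.09% of all hosts, and DESeq2 called none of the 12. The smallest unadjusted p was that of Rbm47, 0.154, with a log2 fold change of 0.99 (SE 0.68) in edgeR. That value rests on relapse 1: without it the log2 fold change was -0.04. Dhx33 was at 0.71 (SE 0.68), Hnrnph1 at -0.47 (SE 0.48, and -0.09 without relapse 1), Snrnp200 at 1.19 (SE 1.49) and Sf3b3 at 1.04 (SE 1.74). Sf3b3 turned to -3.05 without relapse 2, which held all its relapse reads.

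The third comparison set relapse against sham, sharing libraries with both others. None of the 12 was called, where 0.0731% of all hosts were, and none had an unadjusted p under 0.05, against 5.56% of all hosts. DESeq2 called none of the 12. Dhx33 came closest, with a log2 fold change of 1.34 (SE 0.69), p of 0.0584 and adjusted p of 0.856 in edgeR. Leaving out each library in turn kept it between 1.22 and 1.60. Rbm47 followed at 1.22 (SE 0.69) with a p of 0.0836, and without relapse 1 it was 0.20. Hnrnph1 was at -0.61 (SE 0.48), running from -0.22 without relapse 1 to -1.11 without relapse 2. Also measured were Rbm27 at 0.69 (SE 0.59), Hnrnpm at 0.72 (SE 0.64) and Dhx36 at 1.45 (SE 1.45). Without relapse 2 Rbm27 was at -0.18 and Hnrnpm at -0.02.

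**Figure D4:**
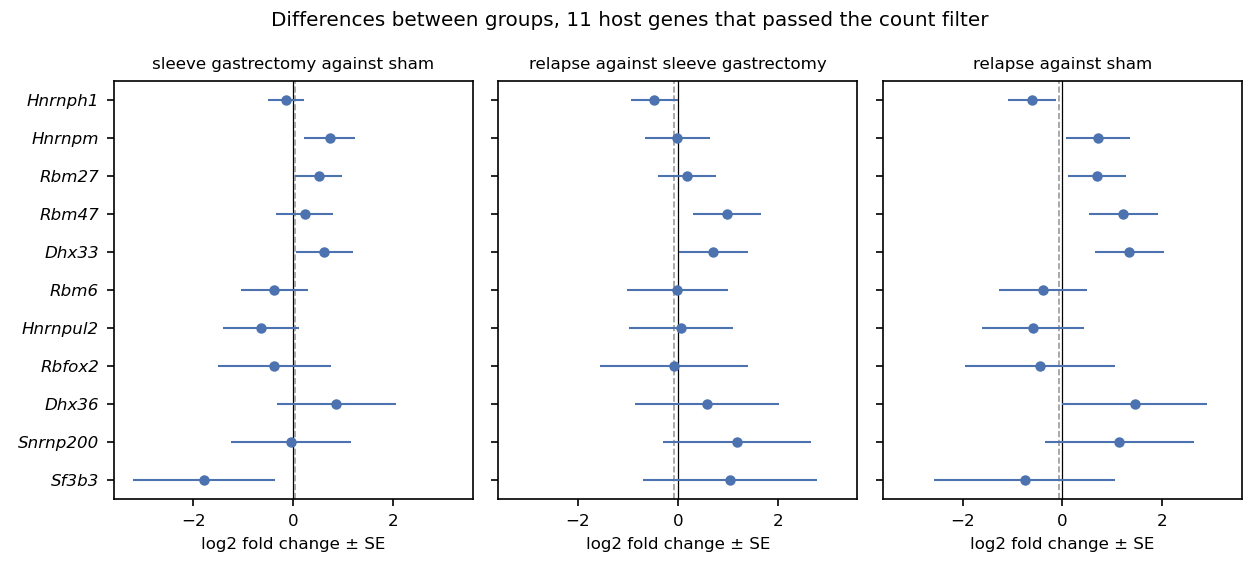
Log2 fold change (horizontal axis) with its standard error (bars) for 11 of the host genes that passed the count filter, in each of the 3 comparisons; the solid line marks no change and the dashed line the median of all 1368 hosts tested. The bars of an abundant host such as Hnrnph1 (SE 0.35 to 0.48) are short, those of Sf3b3 (SE 1.43 to 1.82) are long, and no gene passed the threshold.

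By circle rather than by gene, 16 junctions of 10 hosts passed the filter. None was called in any of the 3 comparisons, and neither was any of the 1519 junctions tested (0.0% in each), by edgeR or by DESeq2. At an unadjusted p under 0.05 there was 1 member junction for sleeve gastrectomy against sham (3.88% of all junctions), 2 when relapse was set against sham (5.79%) and none when it was set against sleeve gastrectomy (4.81%). The first was circRNA908 of Rbm27, with a log2 fold change of 2.39 (SE 0.94), p of 0.0144 and adjusted p of 0.996 in edgeR. It ran from 2.05 to 3.32 with 1 library left out, and without sleeve gastrectomy 2 its unadjusted p was 0.0664. Its neighbour circRNA907 was at -0.15 (SE 0.67), and the difference between the 2 circles was not tested. The others were circRNA755 of Rbm47 at 1.42 (SE 0.69) and circRNA360 of Dhx33 at 1.38 (SE 0.68), both with an adjusted p of 0.839. Without relapse 1 circRNA755 was at 0.34, while circRNA360 stayed between 1.21 and 1.58 with any 1 library left out. Circle circRNA908 was at 2.20 (SE 1.12) for relapse against sham, on the same sham libraries.

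Other genes of RNA processing gave the setting for these hosts. Of 72 splicing regulators and spliceosome factors outside the name rule 50 had reads, 1046 in all. Qki, known to influence circle formation, had none. Of 10 tested, none passed the threshold in any comparison by edgeR or DESeq2. In the 3 comparisons in turn 1, 1 and 2 had an unadjusted p under 0.05, where 3.29%, 4.09% and 5.56% of all hosts did. The median log2 fold changes of the 10 were 0.02, -0.34 and -0.58, where those of all hosts were 0.03, -0.07 and -0.06. No test is given for these shares and medians. Luc7l2, a U1-associated protein, had the smallest p in 2 comparisons. Its log2 fold change was 2.25 (SE 0.88) for sleeve gastrectomy against sham, with an unadjusted p of 0.0135 and an adjusted p of 0.974 in edgeR, and 2.18 (SE 1.06) for relapse against sham, with 0.0446 and 0.856. Of its 7 sham reads most were in sham 2, and without that library the values were 4.42 and 4.35. For relapse against sleeve gastrectomy it was the splicing kinase Srpk2, listed at 0 in both relapse libraries against 146 ± 127 RPM (SD, n = 5). Its log2 fold change was -4.85 (SE 2.32), with an unadjusted p of 0.0413 and an adjusted p of 0.9997 in edgeR. A count of 0 in 55702 pooled relapse reads allows up to 53.9 RPM by counting error alone. The sleeve gastrectomy range also reached 0.

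The listed genes of RNA decay and translation control gave more reads in sum. Of 76 such genes 60 had 5360 reads, more than the 91 RNA-binding and splicing hosts together. Most of these reads came from a few genes: Pan3 had 1192, Upf2 880 and Samd4a 823. Pan3, part of a poly(A) nuclease, was at 4268 RPM, the nonsense-decay factor Upf2 at 3152 RPM and the translation repressor Samd4a at 2987 RPM on average. None of 18 tested passed the threshold by edgeR or DESeq2 or had an unadjusted p under 0.05, and their median log2 fold changes were 0.08, 0.27 and 0.26. The smallest p values were 0.0519 for Ago3 (log2 fold change -1.10, SE 0.55, sleeve gastrectomy against sham), 0.156 for Cnot4 (1.32, SE 0.92, relapse against sleeve gastrectomy) and 0.0885 for Samd4a (-0.56, SE 0.32, relapse against sham) in edgeR. Of 14 genes of double-stranded RNA binding and circRNA export 10 had reads and 2 were tested, Prkra and Strbp. Of 22 RNA modification genes 11 had reads and 2 were tested, Trmt1l and Zc3h13. None of these 4 was called by edgeR or DESeq2 or had an unadjusted p under 0.05 in any comparison. Their levels were close to the limit of counting for Strbp, Trmt1l and Zc3h13, while Prkra, an activator of the kinase that senses double-stranded RNA, had 634 ± 126 RPM (SD, n = 5) in sham, 671 ± 256 RPM (SD, n = 5) with sleeve gastrectomy and 999 ± 349 RPM (SD, n = 2) at relapse.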

How the data were processed

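RNA was depleted of ribosomal RNA, treated with RNase R, which digests linear RNA, and sequenced as stranded paired ends, per the labels' protocols. The submitters' processing notes name cutadapt 1.9, FastQC, TopHat2 2.0.10 and Rnor_6.0; the back-splice caller is not given in the sources used here. The deposited table gives back-splice read counts per circRNA and library, per the file headers. The deposited SRPBM columns, a depth-scaled signal per the file headers, served in an alternative scaling alone. Starts of entries with a symbol are counted from 0 in the table and are printed counted from 1. Exon numbers are those of the table. Identifier entries were joined to a symbol where they shared its transcript name (22 entries from 13 identifiers, 125 reads), and counts were summed per host gene or junction.

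Differences were fitted with edgeR 4.0.16 in R 4.3.3 (quasi-likelihood, TMM, all 3 groups, hosts with a count of at least 5 in enough libraries and 15 in total), with Benjamini-Hochberg adjustment over all hosts or junctions tested and a threshold of 0.05. The fit was tested on simulated data. A standard error is the log2 fold change divided by the square root of its F value. Alternatives were DESeq2 1.42.0, other normalisations, count filters and entry joins, the 2 groups alone, the replicate number as a block, and each library left out. Libraries of a group differed from each other by more than sampling noise. Precision is limited by this spread, by the 2 relapse libraries and by the 18176 to 37229 reads per library.

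The hosts named were the most abundant of each family, the 12 most abundant, and per comparison the 6 tested with the smallest p; of other gene lists, the gene with the smallest p. 1 host of the set and 1 listed gene are not reported here, though counts over the set include them. Further hosts were named after their values were seen. Members and lists were chosen with earlier results of these data known. Among the listed modification genes Rbm15 and Rbm15b also fit the name rule and had no reads, and Zc3h13 is in 2 lists.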

Additional observations from a re-analysis of the deposited data

Results flagged for a closer look

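In 37 checks for a library far from the others, each of 1 measure in the 5 sham or the 5 sleeve gastrectomy libraries, 3 found one, where chance marks about 1 in 20. Hnrnpul2 reached 393 RPM in sleeve gastrectomy 4, and the other 4 libraries of that group had 103 to 162 RPM. Ddx17 reached 590 RPM in sleeve gastrectomy 2, where the other 4 had 0 to 162 RPM. Sham 1 had reads from 41 of the 91 hosts, and the other 4 sham libraries from 28 to 31; sham 1 had 30213 back-splice reads and the others 18176 to 21509.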

How the results depend on the processing

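No tested host or junction of the 91 genes passed the threshold under any alternative run. The counts over all hosts were small and moved. For sleeve gastrectomy against sham (2 hosts) they were 0 with a minimum count of 10, DESeq2, the 2 groups alone or SRPBM scaling, 1 with no count filter or with symbol entries alone, and 0 to 3 with a library left out. For relapse against sleeve gastrectomy (2 hosts) they were 0 with a minimum count of 10, the 2 groups alone, symbol entries alone or joining by junction, 1 with joining by gene record, and 0 to 4 with a library left out. For relapse against sham (1 host) they were 0 with the 2 groups alone, 2 with DESeq2 size factors or with either further joining, 3 with no filter, and 0 to 4 with a library left out. With the replicate block they were 0, 0 and 0 hosts and 1, 2 and 1 junctions. Same-numbered libraries did not deviate together (correlations -0.072 to 0.018). Counting noise at these read numbers could hide a shared deviation, so whether the numbers pair the samples was not settled. With a library left out junction counts were 0 for sleeve gastrectomy against sham, 0 to 9 for relapse against sleeve gastrectomy and 0 to 8 for relapse against sham, the highest without relapse 2. The share of reads from the 91 hosts was 0.961%, 0.943% and 1.13% in sham, sleeve gastrectomy and relapse with symbol entries alone, and 0.942%, 0.930% and 1.10% with exonic entries alone. Leaving out a single library turned the sign of the log2 fold change of 3, 7 and 6 of the 12 tested hosts in the 3 comparisons in turn. Among the 6 hosts of smallest p in each comparison, 4 values turned. For relapse against sleeve gastrectomy, Rbm47 ran from -0.044 without relapse 1 to 1.63, and Sf3b3 from -3.05 without relapse 2 to 1.96. For relapse against sham, Rbm27 ran from -0.18 and Hnrnpm from -0.023, both without relapse 2, to 1.26 and 1.23. The cause of these moves was not tested. SRPBM scaling moved the median of all hosts to 0.18, 0.06 and 0.25 for the 3 comparisons in turn, from 0.03, -0.07 and -0.06. SRPBM scaling and joining by gene record were chosen after seeing the data. With 2 relapse libraries, and most of the 91 hosts under 10 reads, small differences could not be detected at this depth.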
